A study of Mus musculus with 4 samples.

Results

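The 10 genes described here are *Fos*, *Fosb*, *Jun*, *Junb*, *Jund* and *Atf3*, which encode subunits of the transcription factor AP-1 or close relatives of them, the zinc-finger factor gene *Egr1*, the immediate early response genes *Ier2* and *Ier3*, and *Zfp36*. They were chosen by name, with earlier results of these data known, and are 10 of the 24378 gene rows of the deposited tables. Immediate early genes are switched on within minutes of a stimulus, without new protein synthesis, by kinase cascades acting on factors such as SRF, its ternary complex partners and CREB that are already present in the nucleus. AP-1 is a dimer of FOS, JUN or ATF proteins that binds short palindromic sites, and in the epidermis it is known for its part in the control of keratinocyte growth and differentiation. Trypsin digestion and cell sorting are known to induce the same genes, every cell measured here went through both, and no undissociated sample was analysed, so the part of cell isolation in the levels below was not tested.

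The cells were sorted from the dorsal skin of female *Ivl-CreERT2*/*R26-tdTomato* mice at post-natal day 57, all of which had received tamoxifen (10 µg per g by the sample labels, injected intraperitoneally) 2 days before. The study's methods state a higher dose than the labels, and the conflict was not resolved. The CreERT2 recombinase is driven by the promoter of *Ivl* (Involucrin, a protein of differentiating keratinocytes), so that tamoxifen turns on the red protein tdTomato in cells in which this promoter is active. Live cells positive for ITGA6 (CD49f) and SCA1 (LY6A) and negative for CD34, a gate for basal cells between the hair follicles, were collected as traced (Tom+) and non-traced (Tom−) cells and loaded on microfluidic chips of 96 wells. There was 1 chip of each sort under each of 2 run tags of the labels, called run 1 and run 2, so that each sort has 2 libraries. The study lists as many mice for these sorted cells as there are runs. Which libraries came from which mouse is not stated, so a run may or may not be a single mouse. The main test between the sorts did not pair the libraries of a run, and p-values measure the spread between these libraries only.

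Of 384 wells, the 161 with at least 2000 unique molecular identifiers (UMIs, each a counted RNA molecule) on genes were kept as cells, 35 and 58 in the Tom+ libraries of runs 1 and 2 and 20 and 48 in the Tom− libraries. The libraries held between 81630 and 305407 UMIs, with medians of 3225 to 4524.5 UMIs per cell. *Krt5* or *Krt14*, keratins of basal keratinocytes, had UMIs in all 161 cells, whereas *Cd34* had none and the defining markers *Cd3e* (T cells), *Cd207* (Langerhans cells), *Pecam1* (endothelium) and *Col1a1* (fibroblasts) had 0 to 5 UMIs per library. By wider marker lists, 148 of the 161 cells, and 49 of the 58 of Tom+ run 2, had fewer than 3 markers of any other cell type. Markers of the infundibulum (upper hair follicle) were the most frequent, with 3 or more in 6 cells of Tom+ run 2 and 2 of Tom− run 2. All 161 cells were kept in the main results. No well name was shared between libraries. Levels per cell are given as UMIs after each cell had been thinned at random to 2000 UMIs, so that cells of different depth can be compared.

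The stretches of 120 bases in front of the transcription starts of 5 of the genes are shown. These genes mark the ends of the pattern described below. In it, *Zfp36*, *Atf3*, *Fos* and *Jun* varied together from cell to cell. *Ier3* had the lowest mean correlation with the summed UMIs of the other genes. In run order, its correlation was 0.26 and 0.21 in the Tom+ libraries and 0.07 and −0.14 in the Tom− libraries. *Ier3* had few UMIs, and the part of low counts in this was not tested. The stretches were taken from RefSeq (build GRCm38.p6), read 5′ to 3′ on the gene's strand and end at the base before the start. They lie at chr12:85473770-85473889 (plus strand, *Fos*), chr1:191183334-191183453 (minus strand, *Atf3*), chr4:95052223-95052342 (minus strand, *Jun*), chr7:28379229-28379348 (minus strand, *Zfp36*) and chr17:35821593-35821712 (plus strand, *Ier3*). Capitals mark TGACG on either strand (the core of the cyclic AMP response element), TGACATCA (a variant AP-1 and ATF site) or the CArG box bound by SRF.
Fos: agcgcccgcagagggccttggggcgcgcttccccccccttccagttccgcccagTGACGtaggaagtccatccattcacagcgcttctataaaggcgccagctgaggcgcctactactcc
Atf3: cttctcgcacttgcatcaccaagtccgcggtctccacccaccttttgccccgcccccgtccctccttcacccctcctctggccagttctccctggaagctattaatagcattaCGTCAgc
Jun: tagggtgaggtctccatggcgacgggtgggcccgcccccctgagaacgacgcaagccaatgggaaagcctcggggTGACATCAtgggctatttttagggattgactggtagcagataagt
Zfp36: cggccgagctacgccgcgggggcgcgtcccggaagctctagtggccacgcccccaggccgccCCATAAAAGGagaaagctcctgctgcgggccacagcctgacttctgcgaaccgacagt
Ier3: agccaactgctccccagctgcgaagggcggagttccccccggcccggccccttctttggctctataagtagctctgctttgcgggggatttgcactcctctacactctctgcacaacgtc

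The sequence TGACG began 66 bases before the start of *Fos*, and its reverse complement lay 7 to 3 bases before that of *Atf3*. Distances depend on the start used, since the nearest start in another annotation (GENCODE) was 7 bases away for *Atf3* and 27 for *Zfp36*. In the RefSeq windows of 300 bases (250 before and 50 after the start), which matched 8 of the 10 genes by symbol, TGACG was found on either strand in 4 of the 8 (*Atf3*, *Fos*, *Fosb* and *Junb*) and in 20.8% of all 32851 promoters. TGACATCA was found in *Jun* and in 3.62% of all promoters. The CArG box was found in *Zfp36*, 58 to 49 bases before the start, and in 1.63% of all promoters. The palindromic AP-1 site TGANTCA was found in 0 of the 8 and in 7.81% of all promoters. Sites more than 250 bases before a start, or in the genes without a window (*Egr1* and *Ier2*), would have been missed. The lack of a motif here is thus no sign that a gene lacks such a site. These motifs were chosen after the sequences had been seen, and a match describes letters and not binding.

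The first question was how high the 10 genes were in each cell. Together they took 1.19% and 1.20% of the UMIs of the Tom+ libraries of runs 1 and 2 and 1.32% and 1.44% of those of the Tom− libraries. Per thinned cell, the summed UMIs of the 10 genes were 22.6 ± 18.4 (SD over 35 cells) and 24.7 ± 13.9 (58 cells) in Tom+ and 27.8 ± 20.0 (20 cells) and 27.6 ± 15.2 (48 cells) in Tom−. Both Tom− libraries had the higher means, while the spread between the cells of a library was several times as wide as the gap between the sorts. The difference, Tom+ minus Tom−, was −5.23 UMIs within run 1 and −2.89 within run 2. With 2 libraries a sort, an exact permutation test cannot reach 0.05.

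**Figure D1:**
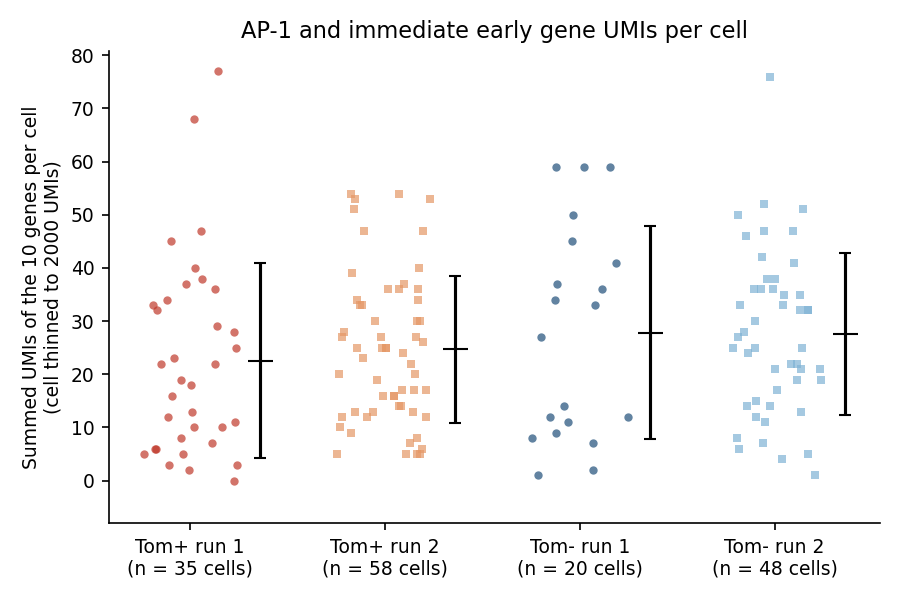
Summed UMIs of the 10 genes in each cell (y axis, cells thinned to 2000 UMIs) by library (x axis), with 1 point per cell and, beside them, the mean ± SD over cells. Cells run from 0 to 77 UMIs in Tom+ run 1, from 5 to 54 in Tom+ run 2, from 1 to 59 in Tom− run 1 and from 1 to 76 in Tom− run 2, and the libraries overlap over most of this range.

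The cells were far from uniform. A single cell, in Tom+ run 1, had no UMI of any of the 10 genes, and the median cell held 6 to 7 of them in each library. In Tom+ run 1, the 9 cells with the most carried 53.4% of all UMIs of the 10 genes, and in the other libraries 14 of 58, 5 of 20 and 12 of 48 cells carried 43.1%, 48.9% and 42.6%. Fewer than 6 UMIs were found in 17.1%, 6.90%, 10% and 6.25% of the cells of Tom+ run 1, Tom+ run 2, Tom− run 1 and Tom− run 2. More than 40 were found in 11.4%, 12.1%, 30% and 18.8%. The low and the high cells were thus present in both sorts and both runs.

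Total UMIs of the cell before thinning followed the summed level loosely at most. The Spearman correlation of the 2 was 0.26, 0.01, −0.01 and 0.19 across the cells of Tom+ run 1, Tom+ run 2, Tom− run 1 and Tom− run 2. In Tom+ run 1, the 18 shallower cells averaged 18.7 summed UMIs and the 17 deeper ones 26.6, and in the other libraries the corresponding means lay within 3 UMIs of each other. The correlation with the spike-in UMIs of the well was 0.19, −0.17, 0.29 and −0.03.

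Among the FOS proteins, which dimerize with JUN proteins, *Fos* was found in 82.9%, 98.3%, 85% and 89.6% of thinned cells of Tom+ run 1, Tom+ run 2, Tom− run 1 and Tom− run 2. Its mean was 5.4 ± 5.5 and 7.2 ± 5.3 UMIs per cell in Tom+ and 6.9 ± 5.7 and 6.9 ± 5.8 in Tom− (SD over cells). The 2 Tom− libraries lay between the 2 Tom+ libraries. *Fosb* averaged 3.8 and 2.5 UMIs in Tom+ and 3.1 and 3.3 in Tom−, with the Tom− libraries again between the others.

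Of the JUN proteins, *Jun* averaged 3.0 and 3.4 UMIs in Tom+ and 4.0 and 3.7 in Tom−, and *Junb* averaged 0.83 and 0.93 in Tom+ and 1.5 and 1.3 in Tom−. For both genes the 2 Tom− libraries were above the 2 Tom+ libraries. *Jund*, the JUN gene known for steady rather than induced expression, averaged 0.54 and 0.95 in Tom+ and 0.85 and 0.50 in Tom−, with no order by sort. *Atf3*, a stress-induced factor of the ATF family that can pair with JUN proteins, averaged 3.7 ± 4.2 and 3.7 ± 3.3 in Tom+ and 4.6 ± 4.1 and 6.2 ± 5.0 in Tom−. Its Tom+ libraries were nearly level with each other and below both Tom− libraries.

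*Egr1*, a growth factor-induced zinc-finger factor, averaged 1.6 and 2.5 UMIs in Tom+ and 2.3 and 2.0 in Tom−. *Ier2*, a nuclear protein of the immediate early response, averaged 0.46 and 0.38 in Tom+ and 0.50 and 0.42 in Tom−. *Zfp36*, which encodes an RNA-binding protein that speeds the decay of messages with AU-rich elements, averaged 3.1 and 2.9 in Tom+ and 3.7 and 2.5 in Tom−. The libraries of the 2 sorts overlapped for these 3 genes.

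*Ier3*, which encodes a stress-inducible regulator of cell survival, was the gene with the fewest UMIs, 150 over all kept cells. Its mean was 0.17 ± 0.45 and 0.29 ± 0.65 UMIs per thinned cell in Tom+ and 0.45 ± 1.05 and 0.79 ± 1.47 in Tom−, and it was found in 14.3%, 22.4%, 20% and 35.4% of cells. Both Tom− libraries were above both Tom+ libraries in mean, but the share of cells of Tom− run 1 (95% Clopper-Pearson interval 5.73% to 43.7%, counting error only) lay within the interval of Tom+ run 2 (12.5% to 35.3%). In all, 4 of the 10 genes (*Jun*, *Junb*, *Atf3* and *Ier3*) had no overlap between the sorts in their library means, with Tom− higher in each. Among the 251 genes with 20 or more UMIs after thinning in every library, 38.2% did not overlap in either direction and 21.9% did not with Tom− higher, and of the 7 members in that set 3 did not. A lack of overlap was thus common at this number of libraries.

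**Figure D2:**
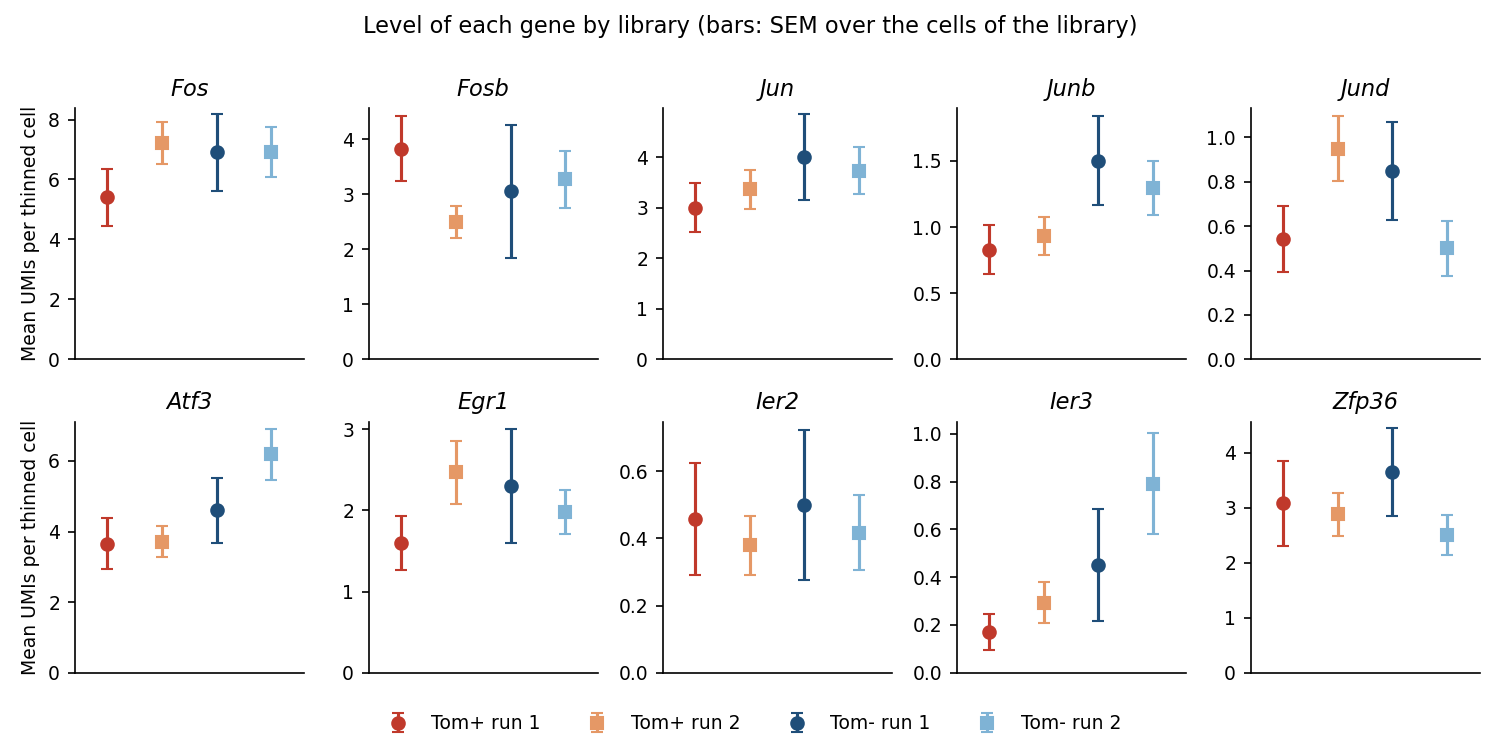
Mean UMIs per thinned cell (y axis) of each of the 10 genes in each library (red and orange, Tom+; dark and light blue, Tom−; circles, run 1; squares, run 2), with bars for the standard error over the cells of the library. The Tom− points are above the Tom+ points for *Jun*, *Junb*, *Atf3* and *Ier3* and mixed with them for the other 6 genes.

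Whether the genes differed between traced and non-traced cells was tested on the counts summed over the cells of each library. Of the 10 genes, 1 passed the test, *Ier3*, which was lower in Tom+ cells, with a log2 fold change of −1.48 ± 0.37 (SE, n = 2 libraries per sort, 95% interval −2.24 to −0.72, edgeR quasi-likelihood test, Benjamini-Hochberg adjusted p = 0.0469). Among all 3070 genes tested, 1.24% were called in either direction and 0.391% as lower in Tom+. The direction for *Ier3* was the same in 14 of 14 alternative settings, but its adjusted p was under 0.05 in only 4 of them and ranged from 0.00175 to 0.452. By the same edgeR test it was 0.226 without Tom+ run 1, 0.285 without Tom+ run 2, 0.452 without Tom− run 2 and 0.00847 without Tom− run 1. The DESeq2 Wald test gave an adjusted p of 0.113. The edgeR test with the run as a block, which pairs the libraries of a run, gave 0.00175.

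The remaining 9 genes did not pass. The edgeR log2 fold change, Tom+ over Tom−, was −0.49 for *Junb* (95% interval −1.08 to 0.10) and −0.48 for *Atf3* (−0.996 to 0.03). It was −0.30 for *Ier2* (−1.05 to 0.44), −0.26 for *Jun* (−0.78 to 0.26) and −0.19 for *Jund* (−0.86 to 0.47). *Fos*, *Egr1*, *Zfp36* and *Fosb* were nearest to 0, at −0.16 (−0.63 to 0.31), −0.14 (−0.68 to 0.40), −0.11 (−0.63 to 0.41) and −0.01 (−0.56 to 0.53). All 10 estimates were below 0, with a median of −0.23 beside −0.01 over all genes tested, but *Fosb*, *Egr1* and *Zfp36* were above 0 without the filter on low counts, *Jund* with thinned counts, and *Fosb*, *Jun*, *Egr1* and *Zfp36* with 1 library or another left out. The sorts did differ in differentiation genes (*Krt10*, log2 fold change 2.23, adjusted p = 0.000174), of which 6 of 6 were higher in Tom+.

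Related genes outside the 10 were counted in the same fit. Of 41 other immediate early genes, 26 were tested and 1 passed, *Cyr61*, a secreted matrix-associated protein induced by growth factors, which was lower in Tom+ by edgeR (log2 fold change −1.77 ± 0.28, adjusted p = 0.00101). The median of the 26 was −0.34, 20 were below 0, and 6 had an unadjusted p under 0.05, which 9.84% of all genes reached. The most counted of them were *Nfkbia*, the inhibitor of NF-κB (−0.04), *Dusp1*, a phosphatase that switches off MAP kinases (−0.80, adjusted p = 0.154), and *Klf6*, a Krüppel-like factor (−0.35). Of 14 other AP-1 and related bZIP genes, 6 were tested and 0 passed by edgeR and 0 had an unadjusted p under 0.05. The most counted of these were *Atf4* (−0.47), *Fosl2* (−0.34) and *Mafk* (−0.08). Of the kinases and SRF partners upstream, 7 of 25 in the files were tested and 0 passed, adjusted or unadjusted. Among those with the most UMIs were *Nras* (−0.10) and *Map2k3* (−0.24).

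The 2 runs differ in the number that their libraries share in the titles. Since these genes are sensitive to handling, the runs were compared with sort kept in the model. None of the 10 genes passed the edgeR test of run 2 against run 1, and 0 of 10 had an unadjusted p under 0.05. By DESeq2 and by limma-voom the counts were also 0 of 10 for both p-values. The log2 fold changes ran from −0.21 (*Ier2*) to 0.30 (*Jun*), beside 0.423% of 3070 genes called in either direction and 8.93% with an unadjusted p under 0.05. The summed level, run 2 minus run 1, differed by 2.12 UMIs in Tom+ and by −0.217 in Tom−, with no test.

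To ask whether the genes vary with the state of differentiation inside a library, cells with at least 6 UMIs of *Krt10* (a keratin of differentiating cells) after thinning were set against the rest. Positive cells numbered 25 of 35 and 34 of 58 in Tom+ but 3 of 20 and 2 of 48 in Tom−, so the contrast rests mainly on the Tom+ libraries. The cut-off divides a continuous range, and 28 of the 161 cells had 4 to 7 UMIs. *Ier3* was again the 1 member of 10 to pass, lower in positive cells by edgeR (log2 fold change −1.89 ± 0.48, 95% interval −2.85 to −0.92, 8 sums from 4 libraries, adjusted p = 0.00665). Of all 1310 genes tested, 7.4% were called and 3.21% as lower. The mean of *Ier3* was 0.12 UMIs in positive and 0.30 in negative cells of Tom+ run 1, 0.18 and 0.46 in Tom+ run 2, 0 and 0.53 in Tom− run 1, and 0 and 0.83 in Tom− run 2. It was thus lower in the positive cells of 4 of 4 libraries, with only 5 positive Tom− cells behind the zeros. By edgeR the adjusted p was 0.0665 without Tom+ run 1 and 0.0757 without Tom+ run 2, and with a single *Krt10* UMI as the cut-off the fold change was −0.28 (adjusted p = 0.915).

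*Fos* and *Atf3* were also lower in the positive cells of 4 of 4 libraries, as were 21.2% of 250 genes with 20 or more UMIs after thinning in every library. *Fos* had means of 4.72 against 7.1 UMIs, 6.91 against 7.67, 6.33 against 7 and 3 against 7.09 in Tom+ run 1, Tom+ run 2, Tom− run 1 and Tom− run 2, positive cells first. *Atf3* had means of 3.4 against 4.3, 3.47 against 4.04, 3 against 4.88 and 4.5 against 6.26. Neither passed the edgeR test, with log2 fold changes of −0.51 (adjusted p = 0.164) and −0.29 (adjusted p = 0.542). With a single *Krt10* UMI as the cut-off they were at 0.48 and 0.45, and *Atf3* was at 0.42 with at least 5000 UMIs per cell. The other 7 genes lay between −0.44 and 0.13 and did not pass. The summed level differed by −3.08 ± 5.79 UMIs (SD over 4 library differences) and was lower in the positive cells of 3 libraries, and its mean difference was −0.257 UMIs without Tom− run 1. It ran from −6.95 to −0.266 over 20 other thinning seeds and was 5.30 with at least 5000 UMIs per cell and 2.99 with a single *Krt10* UMI as the cut-off, so that no direction held. That a class effect differed between the sorts was not shown for any of the 10 genes by an edgeR interaction term (0 of 10 at an unadjusted p under 0.05, beside 4.5% of 1310 genes tested). *Cyr61* was lower in positive cells as well (−1.78, edgeR adjusted p = 0.000393). Of 12 heat shock genes tested by edgeR, 2 passed, the chaperones *Hspa1b* (1.89, adjusted p = 0.00178) and *Hspb1* (0.94, adjusted p = 0.0279), both higher. Of the 12 estimates, 7 were below 0.

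**Figure D3:**
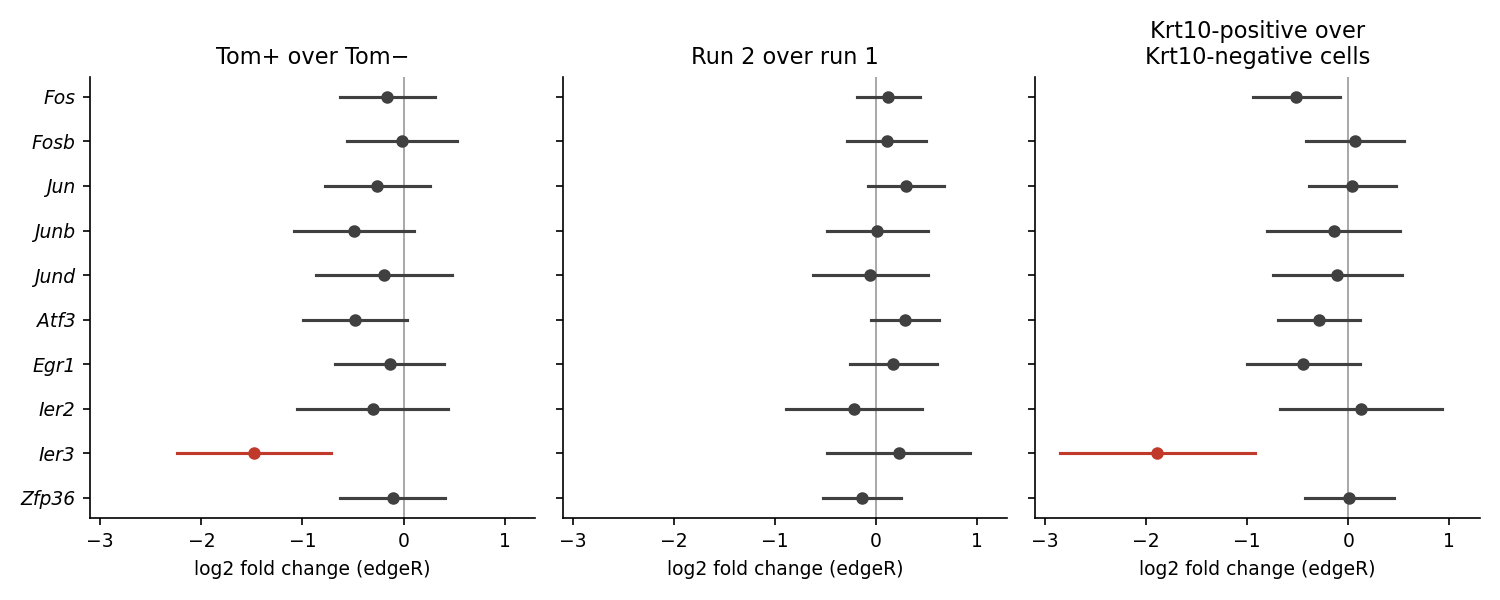
Log2 fold change (x axis, edgeR, on counts summed per library or per library and class) of each of the 10 genes (y axis) between the sorts, between the runs and between *Krt10*-positive and *Krt10*-negative cells, with 95% intervals (lines) and adjusted p under 0.05 in red. *Ier3* is the red point in the first and last panels, at −1.48 and −1.89, and the middle panel has no red point.

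While the means of the sorts lay close together, the genes moved together from cell to cell within each library. Over all pairs of the 10 genes with UMIs in at least 5 cells of a library, the median Spearman correlation across cells was 0.36 in Tom+ run 1 (35 cells), 0.13 in Tom+ run 2 (58 cells), 0.37 in Tom− run 1 (20 cells) and 0.14 in Tom− run 2 (48 cells). The median over all gene pairs filtered in the same way was −0.01 or nearer to 0 in each library. Pairs over 0.3 made up 57.8%, 17.8%, 63.9% and 24.4% of the member pairs and 5.07%, 2.03%, 10.3% and 3.04% of all pairs. Covariation was thus higher in the run 1 libraries of both sorts, which also had the fewer cells, and the part of cell number in this was not tested. Cells of a library share their source, and these correlations are descriptions.

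Medians were higher over more highly counted genes, a set chosen after the data had been seen. Among genes with a mean of at least 1 thinned UMI in the library, the medians over member pairs were 0.48, 0.27, 0.45 and 0.28 and those over all pairs were 0.04, 0.01, 0.02 and 0.02. Of the 45 pairs, 36 could be measured in all 4 libraries, and 25 of these were positive in all 4. A core of 5 genes, *Fos*, *Jun*, *Atf3*, *Egr1* and *Zfp36*, named from these same values, supplied each of the 5 pairs that were over 0.3 in 4 of 4 libraries. *Egr1* entered only through its pair with *Fos*, and its pair with *Atf3* was at −0.005 in Tom− run 2. The share of all gene pairs that would meet either count was not determined.

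The highest pair was *Atf3* with *Zfp36*, at 0.63, 0.52, 0.67 and 0.53 in Tom+ run 1, Tom+ run 2, Tom− run 1 and Tom− run 2. *Fos* with *Zfp36* followed at 0.63, 0.57, 0.76 and 0.28, the last library being well below the others. *Fos* with *Jun*, the partners of the classic AP-1 dimer, reached 0.45, 0.49, 0.54 and 0.39. *Fos* and *Jun* were both found in 23 of 35, 49 of 58, 16 of 20 and 39 of 48 thinned cells, and cells with neither numbered 2, 0, 3 and 2. *Jun* with *Atf3* averaged 0.49 over the libraries and *Fos* with *Egr1* 0.45.

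Against the summed UMIs of the other 9 genes, *Zfp36* had the highest mean correlation (0.65, from 0.59 to 0.70 over the libraries). *Atf3* (0.63), *Fos* (0.58), *Jun* (0.58) and *Egr1* (0.50) came next, and their ranges over the libraries overlapped, so that their order is not resolved. *Fosb* was uneven, with 0.69, 0.11, 0.45 and 0.57 in Tom+ run 1, Tom+ run 2, Tom− run 1 and Tom− run 2. Its 9 pairs in Tom+ run 2 had a median of 0.03, against 0.49 in Tom+ run 1. *Junb* (0.62, 0.09, 0.50 and 0.15) and *Ier2* (0.34, 0.29, 0.30 and 0.42) were weaker, and *Jund* (0.20 on average) and *Ier3* (0.10) were weakest. *Ier3* ranged from −0.14 in Tom− run 2 to 0.26 in Tom+ run 1. *Jund*, *Ier2* and *Ier3* were also the 3 genes with the fewest UMIs, and the part of low counts in their weak covariation was not tested.

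**Figure D4:**
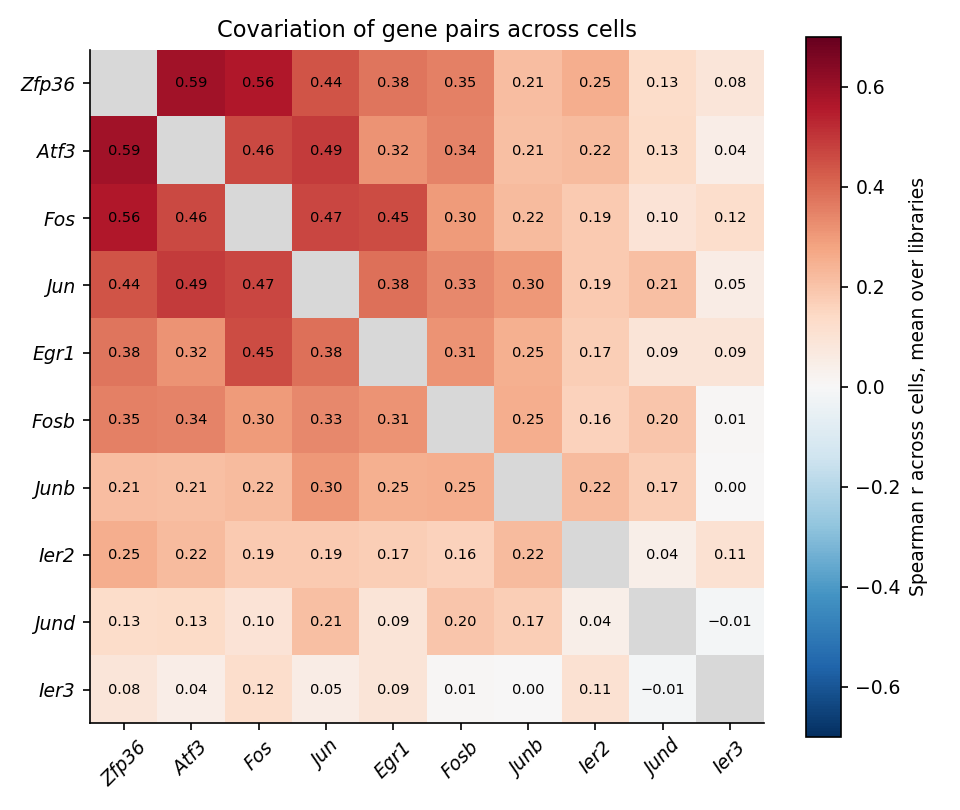
Spearman correlation across cells for each pair of the 10 genes, as the mean over the libraries in which both had UMIs in at least 5 cells (4 libraries, or 3 for pairs with *Ier3*), with the genes ordered by their mean correlation with the other 9. Values rise to 0.59 among *Zfp36*, *Atf3*, *Fos*, *Jun* and *Egr1* in the upper left and are near 0 for *Ier3* in the last row.

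Several of the genes varied widely over cells. For *Fos* the ratio of variance to mean stood at percentile 96.9, 97.2, 93.1 and 97.3 among the genes with 20 or more UMIs after thinning in Tom+ run 1, Tom+ run 2, Tom− run 1 and Tom− run 2. *Atf3* stood at 95.9, 94.5, 90.1 and 96, and *Zfp36* at 97.3, 94.4, 87.4 and 86.8. *Fosb*, less even in its covariation, stood at 90.2, 84.5, 97.3 and 95.9, and *Egr1* ranged from 67.0 in Tom− run 2 to 96.1 in Tom+ run 2. *Ier3*, which had enough UMIs in Tom− run 2 alone, stood at 88.9 there. *Junb* stood at 42.7, 41.9, 38.5 and 50.7. This ratio grows with the mean level, and *Junb* had fewer UMIs than *Fos*, *Fosb*, *Atf3*, *Egr1* and *Zfp36*.

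The genes outside the 10 that followed their summed level most closely were then sought among the 244 others with 20 or more UMIs after thinning in every library. The 8 highest by mean correlation over the 4 libraries were *Btg2* (0.58), *Nfkbia* (0.46), *Nr4a1* (0.43), *Mt1* (0.43), *Dusp1* (0.40), *Klf6* (0.37), *Cyr61* (0.36) and *Mt2* (0.35). *Btg2* is an antiproliferative early response gene and *Nr4a1* an orphan nuclear receptor of the same kind, and *Mt1* and *Mt2* encode metallothioneins, which bind zinc. Of the 8, 6 are in the list of other immediate early genes, which had 10 genes among the 244. Heat shock genes, of which 6 were among the 244, supplied 0 of the 8, and with so few of them a count of 0 says little. The median over the 244 was −0.01. Toward the other end were *Rpl22* (−0.23) and *Rpl31-ps12* (−0.22), which are rows of or named for a ribosomal protein, *Ppia* (−0.22), a prolyl isomerase, and *Cd9* (−0.22), a tetraspanin. Since every cell was thinned to the same total, a rise of some genes lowers the others.

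*Btg2* reached 0.79, 0.40, 0.66 and 0.47 in Tom+ run 1, Tom+ run 2, Tom− run 1 and Tom− run 2, as high as several of the 10 genes themselves. Summed over the list, the other immediate early genes correlated with the 10 genes at 0.77, 0.53, 0.79 and 0.72. Their summed level was 21.4 and 24.6 UMIs per thinned cell in Tom+ and 29.4 and 31.1 in Tom−. The other AP-1 and related bZIP genes gave 0.36, −0.07, 0.49 and 0.07, higher in the run 1 libraries than in those of run 2, at a summed level of only 1.97 to 2.77 UMIs per cell. Heat shock genes gave 0.41, 0.11, −0.12 and −0.06, so that their sum moved with the 10 genes in the cells of Tom+ run 1 and little elsewhere. Of the 6 heat shock genes measured singly, 2 were positive in 4 of 4 libraries, as were 24 of the 244 genes outside the 10. *Dnajb1*, a co-chaperone, had 0.45, 0.10, 0.43 and 0.25 (0.31 on average), and *Hspb1* had 0.25, 0.22, 0.17 and 0.30 (0.24 on average). The remaining heat shock genes averaged from −0.08 (*Hspa5*) to 0.10 (*Hsp90ab1*). Summed differentiation genes gave 0.03, 0.01, −0.19 and −0.02, and summed basal genes −0.24, 0.02, 0.32 and −0.05.

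**Figure D5:**
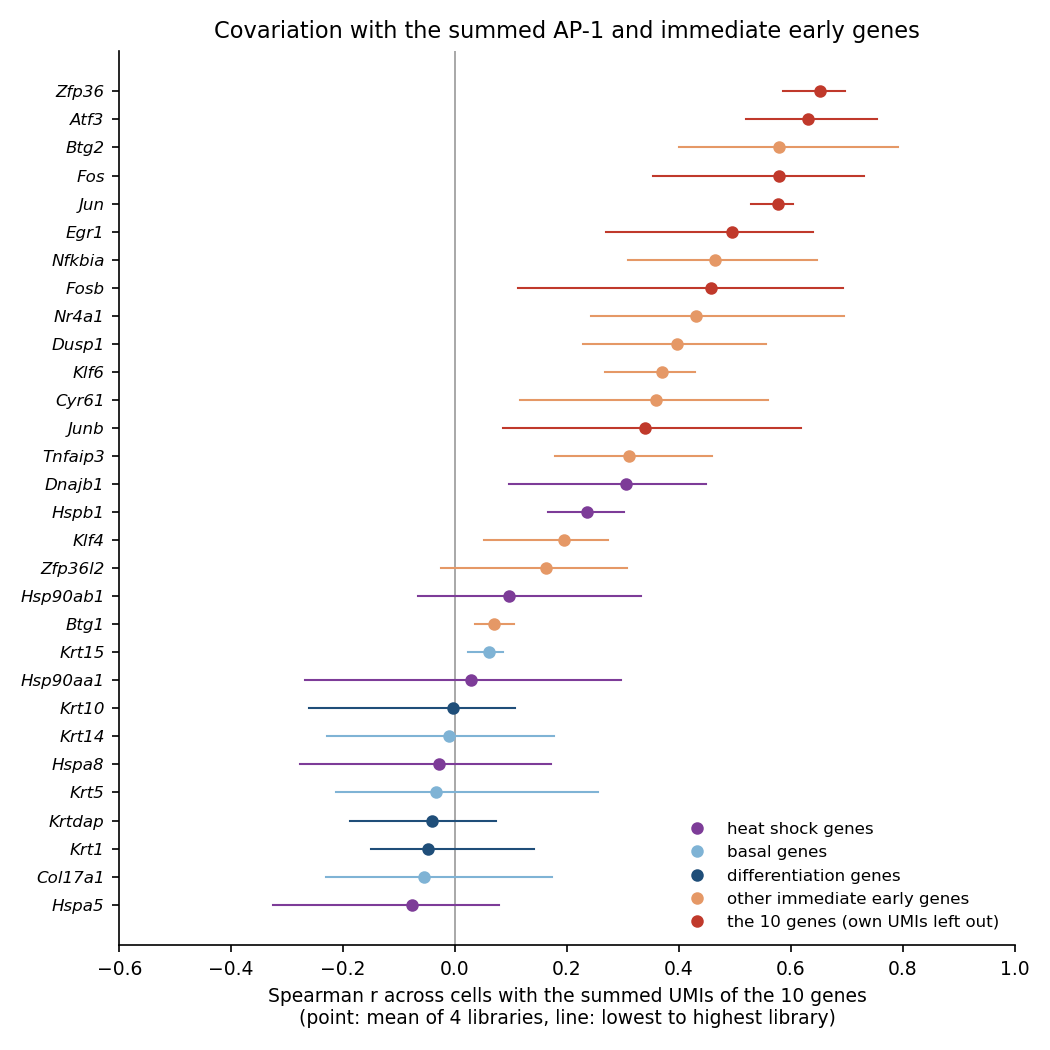
Spearman correlation across cells (x axis) of each listed gene with the summed UMIs of the 10 genes, as the mean of 4 libraries (point) and the lowest to highest library (line), for genes with 20 or more UMIs after thinning in every library. A member's own UMIs were left out of its sum, and *Btg2* (0.58) and *Nfkbia* (0.46) lie among the members while the differentiation and basal genes lie near 0.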

How the data were processed

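Single-cell libraries were made by the authors on Fluidigm C1 chips, and the authors deposited raw UMI counts per gene and well, not normalized, in 1 table per library. The submitters' processing notes name the build mm10 (GRCm38); the aligner is not given in the sources used here. The number of sample columns left unmapped was 0.

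Wells with at least 2000 gene UMIs were kept, and each cell was thinned once (seed 1) to 2000 UMIs for levels and correlations. Full counts summed per library, or per library and *Krt10* class, were tested with edgeR 4.0.16 in R 4.3.3 (TMM, filterByExpr, quasi-likelihood test, Benjamini-Hochberg over all genes tested, threshold 0.05). The models were sort alone, sort plus run, and library plus class. The test was tried on simulated data. Spearman correlations used scipy 1.17.1 on ln(UMI + 1), within libraries.

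Alternatives were other UMI minima (1000, 5000), cells left out (the deepest 5%, or those with 3 markers of another cell type), each library left out, limma-voom (limma 3.58.1), DESeq2 1.42.0 (size factors or Wald test), thinned sums, unfiltered genes, the run as a block, other *Krt10* cut-offs (1, 12), 20 other seeds, no thinning, and sums without *Fos*, *Jun* and *Junb*. The set of pairs with a mean of 1 UMI, the within-run differences and the interaction term were added after seeing the data.

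All 10 members are named. From each other list, genes past the threshold are named (at most 5), otherwise the 3 with the most UMIs. Genes most like the summed members are the 8 highest and 5 lowest. Of the genes these rules name, 2 are not reported here. Where the text gives a member's value under a class or run, those at the ends of the range or lower in 4 of 4 libraries were picked after their values were seen. The members and lists were chosen with earlier results of these data known. Neighbouring or overlapping genes were not resolved.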

Additional observations from a re-analysis of the deposited data

Results flagged for a closer look

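For 5 of the 10 genes the difference Tom+ minus Tom− in mean UMIs per thinned cell had opposite signs in the 2 runs, with 1 library of each sort per run. The difference between the runs was not tested. It was −1.50 in run 1 and 0.307 in run 2 for *Fos*, 0.779 and −0.771 for *Fosb*, −0.307 and 0.448 for *Jund*, −0.700 and 0.486 for *Egr1*, and −0.564 and 0.379 for *Zfp36*. The other 5 genes (*Jun*, *Junb*, *Atf3*, *Ier2* and *Ier3*) were lower in Tom+ in both runs. The share of all genes that would meet either count was not determined, so neither count is a result about these genes.

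Wells below the minimum, which enter no comparison, also held RNA of these genes. In the 54 wells with gene UMIs but fewer than 2000, the 10 genes took 1.72% of the UMIs (517 of 30056), beside 1.27% in the 161 kept cells. In Tom+ run 1, Tom+ run 2, Tom− run 1 and Tom− run 2, the share in the low wells was 1.47%, 1.22%, 1.81% and 1.82%. In the kept cells of the same libraries it was 1.19%, 1.20%, 1.32% and 1.44%. It was thus higher in the low wells of all 4 libraries, but barely so in Tom+ run 2, where they held 21 UMIs of the 10 genes. Tom− run 2 supplied 20105 of the 30056 UMIs, which weights the pooled share. What the low wells held was not tested.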

How the results depend on the processing

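The summed level (Tom+ minus Tom−) and the median pair correlation (mean over libraries 0.250, and 0.244 over 20 other seeds) kept their sign in every alternative run, but the former moved from −4.06 to −6.21 and −7.00 UMIs with at least 1000 and 5000 UMIs per cell and ran from −4.57 to −2.60 over the other seeds. The summed difference between *Krt10* classes turned positive with at least 5000 UMIs per cell (5.30) or 1 *Krt10* UMI as the cut-off (2.99). Under the latter *Fos* was at 0.48 and *Atf3* at 0.45 (log2), and *Atf3* was at 0.42 with at least 5000 UMIs. The cause was not tested. For the other 7 members in the *Krt10* contrast, 33 of 111 alternative values had the opposite sign, as did 20 of 140 values of the 10 genes between runs, and 0 of either passed.

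Between the sorts, *Fosb* (0.12), *Egr1* (0.0061) and *Zfp36* (0.035) were above 0 without the filter and *Jund* (0.21) with thinned sums, none of them past the threshold. With each library left out, *Fosb* ran from −0.27 to 0.36, *Jun* from −0.46 to 0.040, *Egr1* from −0.25 to 0.0071 and *Zfp36* from −0.20 to 0.016, where the library left alone in its sort is assumed to vary like the others.

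Of all genes, 38 were called between sorts, 8 with at least 5000 UMIs per cell and 27 (without Tom− run 2) to 65 (without Tom− run 1) with a library left out. With the run as a block, 116 were called and *Ier3* had an edgeR adjusted p of 0.00175. The run numbers are not stated to pair libraries, and the shift from run 1 to run 2 correlated at 0.141 between the sorts over 3070 genes. Between runs, 13 were called, 7 without the deepest cells, 28 by limma-voom, 2 (without Tom− run 1) to 12 (without Tom+ run 2) with a library left out, and 0 with at least 1000 or 5000 UMIs, without cells with markers of another type, by the DESeq2 Wald test, with thinned sums or with run alone. Between *Krt10* classes, 97 were called, 28 with at least 5000 UMIs, 26 without the filter, 48 with thinned sums, 16 with 1 *Krt10* UMI, and 54 (without Tom+ run 1) to 111 (without Tom− run 1) with a library left out. *Ier3* was filtered out at 5000 UMIs and with thinned sums in that contrast.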
